A study of Mus musculus with 21 samples.

Results

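The granins are acidic secretory proteins that are stored with neuropeptides in dense-core vesicles. Inside the regulated secretory pathway they aggregate with calcium, help to load and form these vesicles, and are themselves cut by prohormone convertases into shorter peptides that are released with the other vesicle contents. In the arcuate nucleus of the hypothalamus, AGRP neurons, which drive feeding, and POMC neurons, which restrain it, both signal in large part through peptides released from such vesicles. The family was taken as 7 named genes out of the 35266 in the tables: *Vgf*, *Scg2*, *Scg3*, *Scg5*, *Chga*, *Chgb* and *Pcsk1n*. All 7 passed the filter on low counts and were measured in every library.

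Neurons were picked by hand for their fluorescence from the arcuate nucleus of male mice on a C57BL/6J background, and the RNA of each mouse was amplified and sequenced as 1 library. AGRP neurons came from NPY-hrGFP mice, 5 fed and 6 food-deprived (FD), and POMC neurons from Pomc-GFP mice, 5 fed and 5 FD. FD mice had water alone for 24 hr, and fed mice had free access to food, each in a fresh cage. AGRP mice were postnatal day 46 to 55 and POMC mice were postnatal day 51 to 56. The fluorescent protein of the AGRP line is driven by *Npy*, so these cells are AGRP neurons by their marker expression, and each reporter line serves 1 cell type alone, so line and cell type cannot be told apart. The marker genes followed the labels. *Agrp*, which encodes the agouti-related peptide, averaged 3455 TPM (the deposited level per gene length, scaled to the library total) in fed AGRP and 15.5 TPM in fed POMC neurons. *Pomc*, the precursor of the melanocortins, averaged 43.5 and 16029 TPM in the same groups.

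Libraries held 9822298 to 37663979 gene counts (median 19189780) from 44 to 214 sorted cells. The amount of added ERCC spike-in RNA differed: 1 µl, 10 µl or a volume set by the number of cells. Among POMC libraries the volume set by cells was used for fed replicates 1 and 2 alone, and the 10 µl volume for FD replicates 4 and 5 alone. Those libraries are named below for each member where, as a pair, they were the highest or lowest of their group. The fed pair came from mice of day 51, and the other fed POMC mice were day 55 to 56. The FD pair was day 54, and the other FD POMC mice were day 55 to 56. Among AGRP libraries, all those of day 46 to 47 and no others were placed in the set by cells. One of them, FD replicate 2 with 50 cells and 1 µl, fits both sets. Volume and age cannot be told apart for these libraries. Summed over 4 markers, oligodendrocyte transcripts lay between 16.0 and 47.8 TPM in all libraries. Summed astrocyte, microglia, endothelial and tanycyte markers each reached at most 12.7 TPM in any library. Of the 4 astrocyte markers, *Aldh1l1* alone was called in AGRP neurons (higher in FD, edgeR q = 0.0284), with 0 to 1 counts in fed and 5 to 111 counts in FD libraries, and *Gfap* (q = 0.897), *Aqp4* (q = 0.928) and *Gjb6* (q = 0.488) were not. The 5 pituitary markers summed to 1.01 to 27.9 TPM in fed and 0 to 8.06 TPM in FD AGRP libraries, with 2 of the 5 at 0 in all fed and 4 in all FD libraries. The 6 markers of other arcuate neurons summed to 2.71 to 10.8 TPM in fed and 1.74 to 47.1 TPM in FD AGRP libraries, with 1 and 2 of the 6 at 0. The part of these transcripts in the granin results was not tested.

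Promoter windows are shown first, because several granin genes are known targets of CREB, an activity-regulated factor, and the windows show which members hold the letters of its site. The cAMP response element (CRE) reads TGACGTCA, and its shorter core reads TGACG. RefSeq promoters (GRCm38.p6, 250 bases before to 50 bases after the annotated start) were matched for 6 of the 7 members by symbol, and *Vgf* had no entry. The full site was searched on both strands, and so was the core, which every full site also contains. The full site was present in 588 of 32851 promoters (1.79%) and the core in 6837 (20.8%). Both *Scg2* and *Chgb* held a full site. *Scg3*, *Scg5* and *Chga* held the core without the full one, and *Pcsk1n* held neither. The windows below are 30 bases, 5′ to 3′ along the gene, with the first full site or, failing that, core in capitals.
*Scg2*, minus strand, chr1:79440076-79440105: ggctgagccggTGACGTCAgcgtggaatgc
*Chgb*, plus strand, chr2:132781559-132781588: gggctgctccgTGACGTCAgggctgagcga
*Chga*, plus strand, chr12:102554885-102554914: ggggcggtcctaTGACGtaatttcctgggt
*Scg3*, minus strand, chr9:75684069-75684098: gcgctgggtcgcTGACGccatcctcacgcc
*Scg5*, minus strand, chr2:113829249-113829278: aaaggaggtaaaTGACGttcataggggtcg

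The full sites lay at -68 to -61 in *Scg2* and at -72 to -65 in *Chgb*, counted from the RefSeq start with -1 as the last base before it. Both windows lie inside the gene spans given below. By those spans the full sites follow the gene start and do not precede it. The cores began at -44 in *Chga*, -30 in *Scg3* and -175 in *Scg5*. A match is a match of letters and not evidence that a factor binds there. The genes lie apart from each other in the genome, except that *Scg5* and *Chgb* share chromosome 2. On mm10 they span chr5:137026392-137033351 (*Vgf*), chr1:79434669-79440120 (*Scg2*), chr9:75643264-75683996 (*Scg3*), chr2:113776362-113829121 (*Scg5*), chr12:102554969-102565027 (*Chga*), chr2:132781278-132795079 (*Chgb*) and chrX:7919822-7924410 (*Pcsk1n*). Counting ignored strand, and 2 of the 7 overlap an annotated gene on the other strand: Gm37871 lies within *Scg3* and *Eras* overlaps the 3′ end of *Pcsk1n*. These are overlaps of whole gene spans, and whether exons or counted reads are shared was not tested.

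After food deprivation, 5 of the 7 granin transcripts rose in AGRP neurons and none fell, whereas in POMC neurons *Vgf* and *Chga* fell and none rose. The rise was led by *Vgf*, about 27.0-fold, and *Scg2*, about 4.79-fold. *Scg3*, *Chga* and *Chgb* rose by 1.58-fold to 1.81-fold. *Scg5* and *Pcsk1n*, which encode the convertase chaperone 7B2 and the convertase inhibitor proSAAS, passed the test in neither cell type. Of all 16513 genes tested, 5.87% were called higher in FD AGRP neurons, and of the 8200 with over 20 CPM (library-scaled counts) in at least 1 group, 10.8%. Another 4.43% were called lower. In POMC neurons 0.182% of all tested genes were called higher, and 0.194% of all tested genes and 0.354% of those over 20 CPM were called lower. At an unadjusted p under 0.05, 5 members passed in AGRP neurons, all higher, and 3 in POMC neurons, all lower. Of all 16513 genes tested, 3686 passed it in AGRP and 2010 in POMC neurons, in either direction. Of the 8200 over 20 CPM, 2643 and 1237 passed it. Both limma-voom and DESeq2 called 5 members higher in AGRP and 2 lower in POMC neurons, and 0 in the other direction. Over all genes and both directions, limma-voom called 2115 in AGRP and 73 in POMC neurons, and DESeq2 2177 and 382. With libraries scaled per cell, by ERCC counts, ERCC volume and sorted cell number, *Vgf* alone remained called in AGRP neurons and no member in POMC neurons. The limits of this scaling are given at the end. A call is an edgeR quasi-likelihood q (Benjamini-Hochberg adjusted p over all genes tested) under 0.05.

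**Figure D1:**
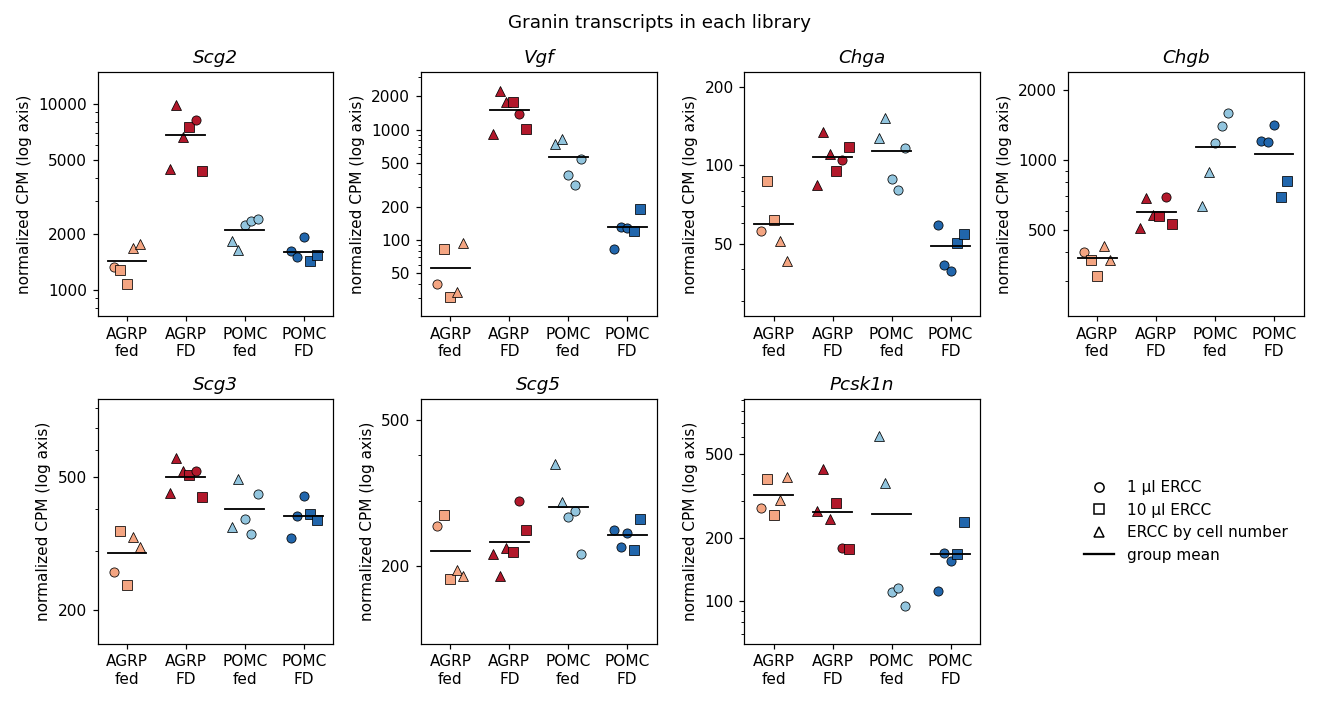
Normalized CPM (log axis) of each granin transcript in each library, by cell type and feeding state, with the group mean as a line and the marker shape giving the ERCC volume. *Vgf* and *Scg2* sit higher in all 6 FD than in all 5 fed AGRP libraries, *Vgf* and *Chga* sit lower in all 5 FD than in all 5 fed POMC libraries, and *Pcsk1n* in POMC fed replicates 1 and 2 lies above the other 3 fed libraries.

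*Vgf* encodes a precursor of several secreted peptides and is known as a gene induced by neuronal activity and growth factors. In fed AGRP libraries it stood at 40.1, 82.6, 30.6, 33.6 and 93.8 normalized CPM (counts scaled by TMM), and its FD libraries ranged from 915 to 2224 with a median of 1582. Every FD library was higher than every fed one. The log2 fold change was 4.76 (SE 0.34, edgeR q = 1.02e-10), which placed *Vgf* at rank 2 of 16513 genes by p. In POMC neurons the fed libraries held 734, 831, 388, 319 and 545 normalized CPM and the FD libraries 82.4, 131, 129, 120.4 and 193. Here every fed library was higher than every FD one, and the 2 highest fed libraries were those with ERCC set by cells. The log2 fold change was -2.10 (SE 0.30, edgeR q = 0.000230), rank 9 by p. Within the 1 µl libraries alone it was -1.87 and still called.

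The change of *Vgf* in AGRP neurons exceeded that in POMC neurons by 6.86 on the log2 scale (SE 0.45, edgeR q = 2.63e-11), the smallest p of all 16513 genes tested. Order by group mean was FD AGRP (1517), fed POMC (563), FD POMC (131) and fed AGRP (56.1 normalized CPM). Only the last pair of neighbours overlapped, since FD POMC reached down to 82.4 and fed AGRP up to 93.8. The mean of *Vgf* was lowest in fed AGRP neurons, where it was 10.0-fold below fed POMC neurons (log2 -3.33, SE 0.32, edgeR q = 6.33e-09), and highest in FD AGRP neurons.

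*Scg2* encodes secretogranin II, the precursor of secretoneurin. In fed AGRP libraries it held 1321, 1286, 1080.5, 1679 and 1763 normalized CPM, and in FD libraries 4350.0 to 9914 with a median of 7043. No FD library overlapped a fed one. The log2 fold change was 2.26 (SE 0.18, edgeR q = 6.50e-10), rank 5 by p. In POMC libraries it held 1834, 1636, 2227, 2339.5 and 2418 when fed and 1623, 1494, 1920.1, 1428 and 1536 when FD. These groups overlapped, and the log2 fold change of -0.39 (SE 0.18, 95% interval -0.73 to -0.04) was not called (edgeR q = 0.364). Fed replicates 1 and 2, those with ERCC set by cells, were the lowest fed libraries and alone overlapped the FD range. The response differed between the cell types by 2.65 (SE 0.25, edgeR q = 3.03e-08), rank 6 by p.

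In level per length, *Scg2* was the most abundant granin in every group. Its rank among all 35266 genes by mean TPM was 26 in fed AGRP, 3 in FD AGRP, 22 in fed POMC and 26 in FD POMC neurons. *Vgf* went from rank 3468 in fed to 47 in FD AGRP neurons, and from 227 in fed to 1361 in FD POMC neurons.

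The chromogranins are the classical acidic vesicle-core proteins. *Chga*, which encodes chromogranin A, held 56.0, 86.8, 61.4, 51.2 and 42.6 normalized CPM in fed AGRP and 84.1 to 134 (median 108) in FD AGRP libraries. One fed library, replicate 2, lay within the FD range, so the groups overlapped, and the log2 fold change was 0.85 (SE 0.21, edgeR q = 0.00629). Neither age cohort alone gave a call (edgeR q = 0.197 at day 51 to 56 and 0.119 at day 46 to 47). In POMC libraries *Chga* held 128, 153, 88.5, 80.2 and 117 when fed and 58.7, 41.5, 39.3, 50.1 and 54.6 when FD, with no overlap. The highest fed libraries were replicates 1 and 2, those with ERCC set by cells. The log2 fold change was -1.21 (SE 0.22, edgeR q = 0.00344), rank 19 by p, and -1.04 (edgeR q = 0.238) in the 1 µl libraries alone. The 2 changes differed by 2.07 (SE 0.30, edgeR q = 4.76e-05).

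*Chgb*, which encodes chromogranin B, rose from 398, 369.9, 316, 427 and 371 normalized CPM in fed AGRP to 509 to 689 (median 576) in FD AGRP libraries, with no overlap. In TPM *Chgb* did overlap, at 555 in AGRP fed replicate 4 and 534 in AGRP FD replicate 4. Its log2 fold change was 0.66 (SE 0.19, edgeR q = 0.0210), and without AGRP fed replicate 3 the q was 0.0718. The call was also lost with sorted cell number as a covariate (edgeR q = 0.0559) and in each age cohort alone (edgeR q = 0.119 at day 51 to 56 and 0.306 at day 46 to 47). POMC libraries held 634, 890.0, 1189, 1399 and 1603 when fed and 1208, 1192, 1412, 695 and 808 when FD. The 2 lowest fed libraries were those with ERCC set by cells and the 2 lowest FD libraries those with 10 µl, and the log2 fold change was -0.10 (SE 0.19, edgeR q = 0.899). The difference between the 2 responses was 0.76 (SE 0.27, edgeR q = 0.0865) and was not called.

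*Scg3* encodes secretogranin III, which tethers granin aggregates to the vesicle membrane. Fed AGRP libraries held 259, 345, 237, 329.9 and 307 normalized CPM and FD libraries 435 to 569 (median 512), with every FD library above every fed one. The log2 fold change was 0.76 (SE 0.14, edgeR q = 0.000318), and 0.68 (edgeR q = 0.186) in mice of day 46 to 47 alone. In POMC neurons *Scg3* ranged from 336 to 491 in fed and 328 to 437 in FD libraries (log2 -0.07, SE 0.14, 95% interval -0.34 to 0.20, edgeR q = 0.907). The difference between the responses was 0.83 (SE 0.19, edgeR q = 0.00817).

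*Scg5* encodes 7B2, the chaperone of the convertase PC2, and *Pcsk1n* encodes proSAAS, which inhibits the convertase PC1/3. *Scg5* ranged from 184 to 274 normalized CPM in fed and 187 to 301 in FD AGRP libraries, and from 215 to 379.8 and 220.3 to 268 in fed and FD POMC libraries. Its highest fed POMC libraries were replicates 1 and 2 (379.8 and 298), those with ERCC set by cells. Its log2 fold change was 0.08 (95% interval -0.22 to 0.39, edgeR q = 0.817) in AGRP and -0.26 (-0.58 to 0.06, edgeR q = 0.557) in POMC neurons. *Pcsk1n* held 276, 379, 256, 303 and 386 in fed AGRP libraries and 177 to 425 (median 256) in FD AGRP libraries, and the log2 fold change of -0.28 (95% interval -0.93 to 0.38, edgeR q = 0.698) was not called. In fed POMC libraries it held 606, 363, 111, 116 and 94.4, so that the 2 libraries with ERCC set by cells stood apart, and FD libraries held 111, 169, 154, 168 and 237. The POMC log2 fold change of -0.62 (95% interval -1.31 to 0.07, edgeR q = 0.503) became 0.43 within the 1 µl libraries.

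**Figure D2:**
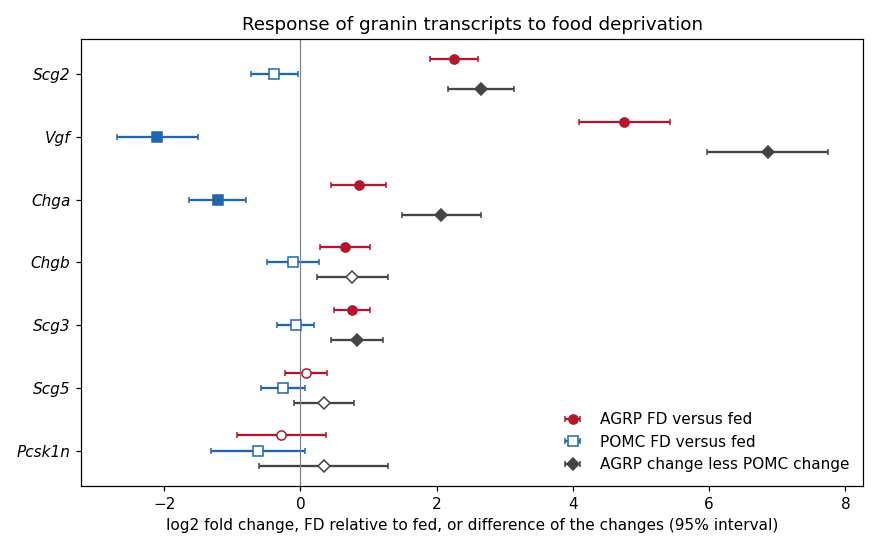
Log2 fold change of FD relative to fed neurons for each granin in AGRP (circles) and POMC neurons (squares), and the AGRP change less the POMC change (diamonds), with 95% intervals. Filled symbols are called at edgeR q under 0.05. *Vgf* and *Chga* lie on opposite sides of 0 in the 2 cell types, and all intervals of *Scg5* and *Pcsk1n* include 0.

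The difference between the responses was called for 4 of the 7 members, all with a positive value of the AGRP change less that of POMC neurons, against 4.08% of all tested genes called in that direction (7.48% of those over 20 CPM). In normalized CPM, 4 of the 7 members had no overlap between fed and FD AGRP libraries, against 7.65% of all tested genes. In POMC neurons it was 2 of the 7, against 2.35%. Of the 4 in AGRP neurons, *Chgb* overlapped in TPM. The median log2 fold change over the 7 members was 0.76 in AGRP and -0.39 in POMC neurons, beside -0.02 and -0.02 over all genes tested. Over the genes with over 20 CPM it was 0.094 and -0.0066. TPM and CPM are shares of a library, so in these units a change in a transcript per cell cannot be told apart from a change in the rest of the RNA. A scaling per cell by ERCC is given at the end with its limits.

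Fed AGRP and fed POMC neurons differed in 3 members, all lower in AGRP neurons, where 4.24% of all tested genes and 7.09% of those over 20 CPM were called lower. These were *Vgf* (above), *Chgb* with a log2 difference of -1.60 (SE 0.20, edgeR q = 7.44e-07) and *Chga* with -0.93 (SE 0.21, edgeR q = 0.00437), which was -0.74 (edgeR q = 0.0895) in mice of day 51 to 56 alone. *Vgf* and *Chgb* did not overlap between the fed groups, as did 8.93% of all tested genes. *Scg2* (-0.55, edgeR q = 0.0502) and *Scg3* (-0.44, edgeR q = 0.0532) just missed the call, with *Scg5* (-0.40, edgeR q = 0.151) and *Pcsk1n* (0.31, edgeR q = 0.715) further from it. Fed groups are the controls of both fasting comparisons, so this contrast shares its libraries with them.

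Summed over the family in TPM, which corrects for gene length, granin transcripts came to 4254 ± 517 (SD, n = 5) in fed and 11778 ± 2497 (n = 6) in FD AGRP neurons. They came to 6308 ± 821 (n = 5) in fed and 5162 ± 570.5 (n = 5) in FD POMC neurons. The lowest POMC sums were in fed replicates 1 and 2 among fed and in FD replicates 4 and 5 among FD libraries. The share of all TPM was 0.425% and 1.18% in AGRP and 0.631% and 0.516% in POMC neurons. *Scg2* made up 46.5% ± 4.8 of the family in fed and 66.5% ± 3.8 in FD AGRP neurons, and *Vgf* 1.53% ± 0.68 and 12.6% ± 1.8. *Scg2* held 40.8% and 41.3% in fed and FD POMC neurons and *Vgf* 9.41% and 2.92%. Without these 2 genes, the other 5 summed to 2198 ± 205 in fed and 2387 ± 197 TPM in FD AGRP neurons, and to 3128 ± 300 and 2881 ± 349 in POMC neurons. The ranges of the other 5 overlapped in both cell types.

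The family was also set against the main peptide precursors of each cell type. Granin TPM per TPM of *Agrp* plus *Npy* was 0.276 ± 0.085 in fed and 0.264 ± 0.082 in FD AGRP neurons, and per TPM of *Pomc* 0.425 ± 0.141 and 0.500 ± 0.133 in POMC neurons, with overlapping ranges in both. The ratio of *Pcsk1n* to *Pcsk1*, the transcript of the convertase that proSAAS inhibits, ran from 3.62 to 10.5 in fed and 0.770 to 2.26 in FD AGRP libraries, which did not overlap. *Pcsk1* alone ran from 53.6 to 124 TPM in fed and 181 to 322 TPM in FD AGRP libraries, whereas *Pcsk1n* was not called. The ratio of *Scg5* to *Pcsk2*, the transcript of the convertase that 7B2 assists, ran from 3.24 to 10.7 in fed and 2.87 to 4.50 in FD AGRP libraries, which overlapped. In POMC libraries both ratios overlapped, with *Pcsk1n* to *Pcsk1* at 0.996 to 4.59 in fed and 1.14 to 1.87 in FD libraries and *Scg5* to *Pcsk2* at 4.17 to 8.53 and 4.06 to 4.69. Among fed POMC libraries, replicates 1 and 2 held the highest values of both convertase ratios and the lowest of granins to *Pomc*.

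**Figure D3:**
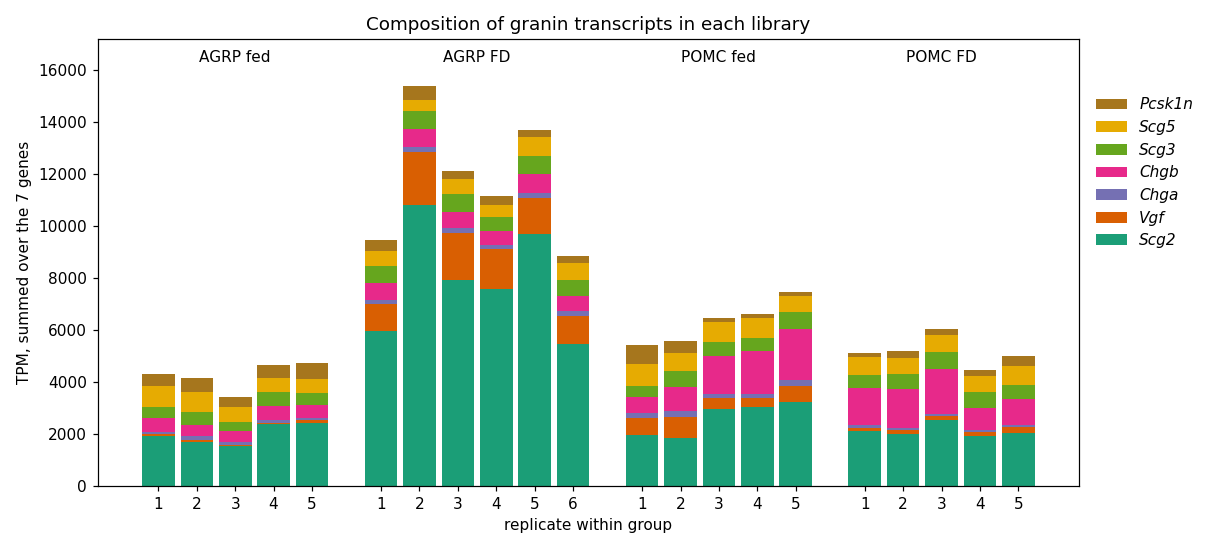
TPM of the 7 granin transcripts stacked for each library, by group and replicate. FD AGRP libraries reach 8836 to 15388 TPM, above all other libraries, and the added height is mostly *Scg2* and *Vgf*.

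The peptide-processing enzymes that cut and trim granins and neuropeptides were compared in the same fit. Of 10 listed, 5 were called higher in AGRP neurons and none lower, and in POMC neurons none was called by edgeR, limma-voom or DESeq2 (1 at an unadjusted p under 0.05). For this and the next lists, the shares of all tested genes in AGRP neurons were 5.87% higher and 4.43% lower. Among genes over 20 CPM, 10.8% were called higher there. In POMC neurons the shares of all tested genes were 0.182% higher and 0.194% lower. The 4 with the largest rise were *Pcsk1* (log2 1.69, SE 0.23, edgeR q = 6.52e-06), *Cpe*, the carboxypeptidase that trims basic residues (1.25, q = 0.00145), *Pcsk2* (0.66, q = 0.0134) and *Pam*, the amidating enzyme (0.61, q = 0.00418). In POMC neurons *Pcsk1* changed by 0.11 (q = 0.908) and *Pcsk2* by 0.21 (q = 0.720). The difference between the responses was called for *Cpe* (1.32, q = 0.0249), *Pam* (1.04, q = 0.00139) and *Pcsk1* (1.58, q = 0.00190) and not for *Pcsk2* (0.45, q = 0.326). Of the 28 genes for dense-core vesicle formation, membrane and release, 8 were called higher and 3 lower in AGRP neurons. The 3 lower ones had log2 fold changes between -0.89 and -0.54. *Sv2c*, a vesicle glycoprotein (2.42, q = 1.65e-08), *Rab3b*, a vesicle GTPase (1.76, q = 1.71e-07), *Ptprn*, a vesicle membrane phosphatase-like protein (1.64, q = 1.58e-06), and *Syt9*, a calcium sensor (1.36, q = 0.0121) had the largest changes. In POMC neurons *Sv2b* rose (1.72, q = 0.00397), and *Unc13a*, a priming factor (-1.03, q = 0.0158), and *Syt4* (-0.69, q = 0.0144) fell. Of 4 listed receptors or partners of granin peptides, *Gpr83*, the proposed receptor of a proSAAS peptide, rose in AGRP neurons (2.67, SE 0.55, q = 0.00139). It ran from 3.20 to 10.1 normalized CPM in fed and 7.97 to 62.2 in FD AGRP libraries, which overlapped. The other 3 were not called in AGRP neurons. In POMC neurons 0 of 4 were called by edgeR, limma-voom or DESeq2 (0 at an unadjusted p under 0.05). The q values of this paragraph are from the same edgeR fit.

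**Figure D4:**
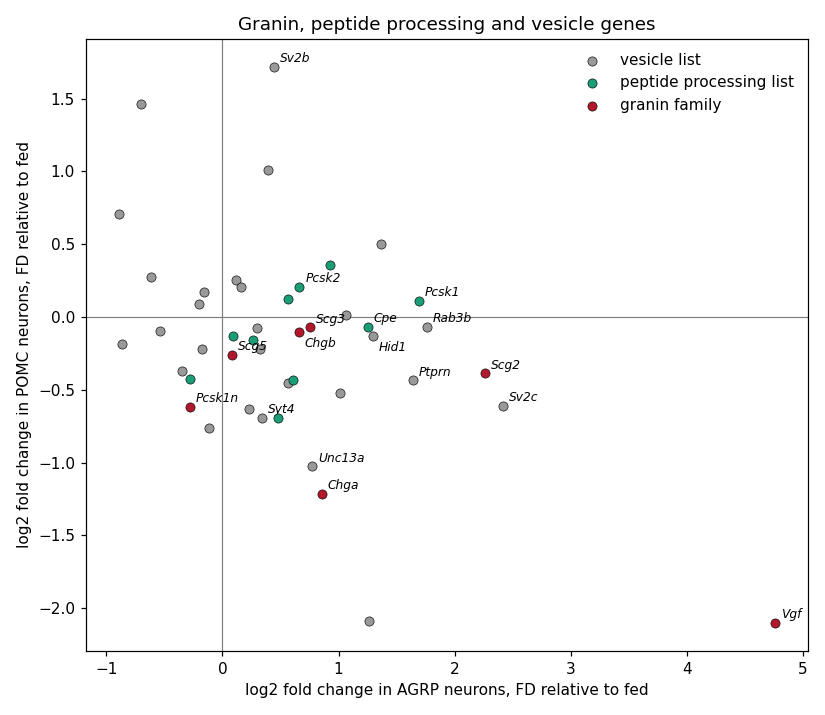
Log2 fold change of FD relative to fed in AGRP neurons (horizontal) and POMC neurons (vertical) for the granins, the peptide-processing list and the vesicle list. *Vgf* lies at 4.76 and -2.10, and *Scg2*, *Sv2c*, *Rab3b* and *Pcsk1* lie to the right of 1.5 with POMC values between -0.61 and 0.11.

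Among the 8200 genes over 20 CPM, the profiles closest to those of the members over the 21 libraries were found by the root mean square difference between centred log2 normalized CPM values, where a smaller value is a closer profile. For *Scg2* the closest was *Hspa5*, the endoplasmic reticulum chaperone BiP (0.298), followed by *Gm27031* (0.309), *Rgs4* (0.332), *Stt3b* (0.334) and *Hyou1* (0.380), against an SD of 0.983 for *Scg2* itself. For *Vgf* the closest was *Spry4* (0.921, against an SD of 2.00), followed by *Plk2* (0.937), *Gcnt2* (1.08), *Srxn1* (1.09) and *Nfil3* (1.10). For *Chga* the closest was *Tubb4b* (0.297), for *Scg3* *Cab39* (0.187) and for *Chgb* *Smarca2* (0.318). For *Scg5* it was *Sms* (0.210, against an SD of 0.265) and for *Pcsk1n* *Crip2* (0.364). No member's 5 closest genes included another member. The measure does not adjust for the size of a change, so members with unlike SDs lie apart even where their patterns match. It cannot show whether the members share a pattern.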

How the data were processed

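AGRP and POMC neurons of 21 mice gave 1 RNA-Seq library each. The authors trimmed reads with cutadapt, removed abundant sequences with Bowtie2 2.1.0, mapped to mm10 with STAR 2.4.0i and made the deposited counts of 35266 genes with HTSeq 0.6.1p1, without strand. The deposited TPM were derived by the authors from these counts and the exon length of each gene. Tool versions are from the submitters' processing notes. The count table's 92 ERCC entries and 5 summary entries were kept apart, and reads assigned to no feature were 24.2% to 52.1% of its total.

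A gene was tested where its CPM exceeded 1 in 3 or more libraries (16513 genes), and 1 edgeR 4.0.16 quasi-likelihood model of 4 groups (R 4.3.3, TMM) was fitted to all libraries, two-sided, with Benjamini-Hochberg adjustment over all genes tested. The study used limma-voom, which was run as an alternative with limma 3.58.1, beside DESeq2 1.42.0. Normalized CPM used TMM-scaled library sizes, and profiles used log2 with a pseudocount of 1. Figures and sequences used Python 3.11.15 with matplotlib 3.10.9, and strands and overlaps GENCODE M21. A floor of 3 counts was 0.0797 to 0.305 CPM and covers counting error only, since amplified reads without molecular identifiers are not independent molecules.

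All members were named, with *Agrp*, *Npy* and *Pomc*, at most 4 called genes per list and contrast plus *Pcsk1* and *Pcsk2*, and each member's 5 closest profiles. The members and lists were chosen with earlier results of these data known. The fit was tested on simulated data with changes set in the FD AGRP libraries. Of 200 changed genes, evenly split between log2 sizes of 1 and 2, edgeR recovered 49 and 97. It made 7 false calls, and a change of log2 1 could go uncalled. Alternatives were other tests, scalings, filters, blocks, a covariate, subsets of libraries and each library left out.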

Additional observations from a re-analysis of the deposited data

Results flagged for a closer look

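The response to food deprivation differed between AGRP and POMC neurons for 4 members by the interaction term of the edgeR fit. The difference, with the POMC change subtracted from the AGRP change, was 6.86 on the log2 scale for *Vgf* (q = 2.63e-11), 2.65 for *Scg2* (q = 3.03e-08), 2.07 for *Chga* (q = 4.76e-05) and 0.83 for *Scg3* (q = 0.00817). No library stood apart from the others of its group by Dixon's criterion in any of the 28 sets of member and group tested, although this criterion looks for 1 library at a time and does not see a pair such as POMC fed replicates 1 and 2 for *Pcsk1n*.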

How the results depend on the processing

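*Vgf* in AGRP neurons was called under all 12 alternatives (log2 4.59 to 4.96), and its difference between the cell types under all 10 (6.70 to 8.07). The ERCC scaling set each library size as ERCC counts divided by the added volume and multiplied by the number of sorted cells. It moved the median log2 change of all genes to -0.08 in AGRP and -1.11 in POMC neurons. It left 1 member called higher in AGRP, 0 lower in POMC, 1 in the difference and 1 lower in fed AGRP than fed POMC neurons, in place of 5, 2, 4 and 3. Under it *Scg2* was 1.98 (q = 0.367) in AGRP and *Vgf* -3.48 (q = 0.0506) in POMC neurons. AGRP FD replicate 3 held 39097 ERCC counts from 1.2 µl and 60 cells, and AGRP FD replicate 4 held 8514459 from 10 µl and 78 cells. The volume sets are unevenly spread over fed and FD POMC libraries, and their part in these values was not tested. Mice of day 51 to 56 alone gave 3 members higher in AGRP neurons and mice of day 46 to 47 gave 2, the 1 µl libraries alone gave 1 lower in POMC neurons, and the age cohort as a block gave 5 lower in fed AGRP neurons. The smaller subsets hold fewer samples, and the cause of the other changes was not tested. Among AGRP libraries the cohort of day 46 to 47 and the volume set by cells are the same libraries.

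Leaving out 1 library gave 4 to 5 members higher in AGRP, 2 lower in POMC, 4 to 5 in the difference and 3 to 4 in the fed comparison. Summed granin TPM then ran from 4137 to 4460 in fed and 11056 to 12366 in FD AGRP, and 6025 to 6526 in fed and 4939 to 5334 in FD POMC neurons. Changes that were not called turned sign with 1 library left out for *Scg3* in POMC neurons (-0.13 to 0.023, positive without fed replicate 2), *Scg5* in AGRP neurons (-0.0033 to 0.17, negative without FD replicate 5) and *Chgb* in POMC neurons (-0.26 to 0.048, positive without fed replicate 5 or FD replicate 4). They also turned sign for *Pcsk1n* in POMC neurons in the 1 µl libraries (0.43), and the *Pcsk1n* difference under limma-voom (-0.041), with ERCC volume as a block (-0.35) and without 1 library (-0.25 to 0.55, negative without POMC fed replicate 1). The closest profiles were the same genes with RLE size factors and with log2(TPM + 1), which follows from their construction, since rescaling whole libraries or genes nearly cancels in these differences.

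With the replicate block, 5 members were called higher in AGRP, 2 lower in POMC, 4 in the difference and 4 in the fed comparison. Same-numbered libraries come from different mice, and the correlation of their deviations from the group means ran from -0.158 to 0.0554, so the numbers pair nothing.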
